A study of Homo sapiens with 6 samples.

Results

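The histone genes comprised 83 of the 16571 gene symbols in an RNA sequencing table of A2780 cells, a line derived from a human ovarian carcinoma. They were taken by symbol, 69 from the replication-dependent clusters (HIST1 to HIST4) and 14 from the families H1F, H2AF, H2BF and H3F, called variants here. The groups were pGIPZ-NC, cells carrying a negative control hairpin in the lentiviral vector pGIPZ, and shUSP39, cells given by lentivirus a hairpin that targets USP39, which encodes a spliceosome protein. Each group had 3 libraries of total RNA, described as biological triplicates of 1 cell line. Stable lines were made by infection and puromycin selection, and the hairpin used for these libraries was not given. The study's figure legends call the samples biologically independent, but whether they came from separate cultures is not described. The p-values therefore measure the spread between these libraries. The comparison asked which histone genes changed their mRNA level when USP39 was knocked down.

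Histones H2A, H2B, H3 and H4 form the core that DNA winds around, and H1 binds the linker between cores. Most of the protein is made in S phase from clustered genes that have no introns and whose mRNAs end in a stem-loop, bound by SLBP, instead of a poly(A) tail. Variant histones are made throughout the cell cycle from genes outside the clusters, most with introns and with poly(A) tails, and are placed by dedicated chaperones. Whether poly(A) RNA was selected for these libraries is not given in the sources used here, so the level of clustered mRNAs against variant mRNAs cannot be read as their proportion in the cell.

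The 3' stem-loop separated the classes in sequence, and its versions are shown because they mark which mRNAs can end without a poly(A) tail. On GRCh37 with GENCODE 44, 80 of the 83 genes were found, 66 of them clustered, and every one of those 66 had 1 exon in its canonical transcript against 5.78% of 19794 protein-coding genes. A hairpin of 16 bases, with arms of 6 bases that pair in full around a loop of 4, was sought in the 100 bases after each stop codon. The search also required the first arm to open with GG and the loop with T, so all versions share these bases by definition. It was present in 64 of the 66 clustered genes and began 23 to 68 bases after the stop codon. Of all protein-coding genes 0.384% held such a hairpin. HIST1H2AG and HIST1H2AK had no match to this definition in the window, and a stem-loop with imperfect arms would have been missed. Among the 14 variants only H2AFX held the hairpin, and H2AFX is also a gene of 1 exon. The commonest version stood in 38 genes, among them HIST1H1C, HIST1H2AC, HIST2H2AA3, HIST2H2BE and HIST1H3J. The versions are written with the arms in capitals.
Version of 38 genes, including HIST1H3J and HIST1H1C: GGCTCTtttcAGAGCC
Version of 9 genes, including HIST1H2BK and HIST1H2BJ: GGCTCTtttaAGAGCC
Version of 9 H4 genes, including HIST1H4C and HIST1H4H: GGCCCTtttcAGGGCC
Version of 4 H4 genes, including HIST1H4K: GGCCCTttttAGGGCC
Version of the variant H2AFX: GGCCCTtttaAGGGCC
All H4 genes found had the arms of the HIST1H4C version, which H2AFX shared, whereas clustered H1, H2A, H2B and H3 genes with the hairpin had the arms of the HIST1H3J version. AATAAA, the core of the poly(A) signal, was found within 200 bases after the stop codon in 7 of the 66 clustered genes, including HIST1H1C and HIST2H2AA3, against 18.7% of all genes. In the 300 bases around the start, CCAAT on either strand was found in 55 and TATAA in 58 of the 66 clustered genes. The shares among all promoters were 36.0% and 16.6%. Of the 14 variants, 9 held CCAAT and 4 held TATAA.

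The libraries held between 28294819 and 32939264 counts. The 3 libraries per group limit the precision of every fold. Between 12662 and 12819 genes had a count in the pGIPZ-NC libraries and in shUSP39 replicate 1, whereas 15446 and 14890 had one in shUSP39 replicates 2 and 3. The level of USP39 is not analysed here and the knockdown is therefore unchecked in these libraries. The study reports western blots of the knockdown in its ovarian cancer lines. Of 11 markers of serous ovarian carcinoma, the cell type on the labels, only KRT18 had a mean of at least 5 counts-per-million (CPM), and PAX8, EPCAM and CDH1 had at most 0.204 CPM. WT1 and FOLR1 are not analysed here. Of 11 other markers, of leukocytes, fibroblasts and endothelium, 3 had a mean of at least 5 CPM, namely CD68, COL1A1 and COL1A2. Over the libraries CD68 had 8.96 to 12.02 CPM and COL1A1 5.88 to 8.66 CPM, whereas PTPRC, CD3E and CD14 had at most 0.232 CPM. The summed level of the 11 was 1132 to 1198 CPM in pGIPZ-NC and 469 to 490 CPM in shUSP39, nearly all of it COL1A2. The part of these shifts in the histone results was not tested.

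Summed over their genes, both classes gave similar totals in the 2 groups. The 69 clustered genes together had 314, 315 and 315 CPM in pGIPZ-NC and 314, 325 and 321 CPM in shUSP39. The 14 variants together had 5097, 5098 and 5092 CPM in pGIPZ-NC and 5106, 5016 and 5166 CPM in shUSP39. Both sums overlapped between the groups. Clustered genes held 5.80% to 5.83% of histone counts in pGIPZ-NC and 5.79% to 6.09% in shUSP39. Within the clustered class the families differed in direction, as the plot of family sums shows. Clustered H1 had 79.6, 82.8 and 84.1 CPM in pGIPZ-NC and 70.3, 63.9 and 68.2 CPM in shUSP39, lower in every library. Clustered H2A had 78.4, 81.2 and 82.9 CPM in pGIPZ-NC and 90.3, 101 and 95.8 CPM in shUSP39, higher in every library. Clustered H3 had 12.7 to 15.8 CPM in pGIPZ-NC and 16.05 to 18.4 CPM in shUSP39, and without HIST1H3J these ranges were 12.6 to 15.6 and 14.01 to 16.6 CPM, which overlap. H2B, at 126 to 135 against 128 to 132 CPM, and H4, at 6.86 to 9.29 against 7.80 to 9.89 CPM, overlapped between the groups. These sums are descriptions and were not tested. In bulk RNA, fewer cells of a kind, such as cells in S phase, and less RNA per cell cannot be told apart.

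**Figure D1:**
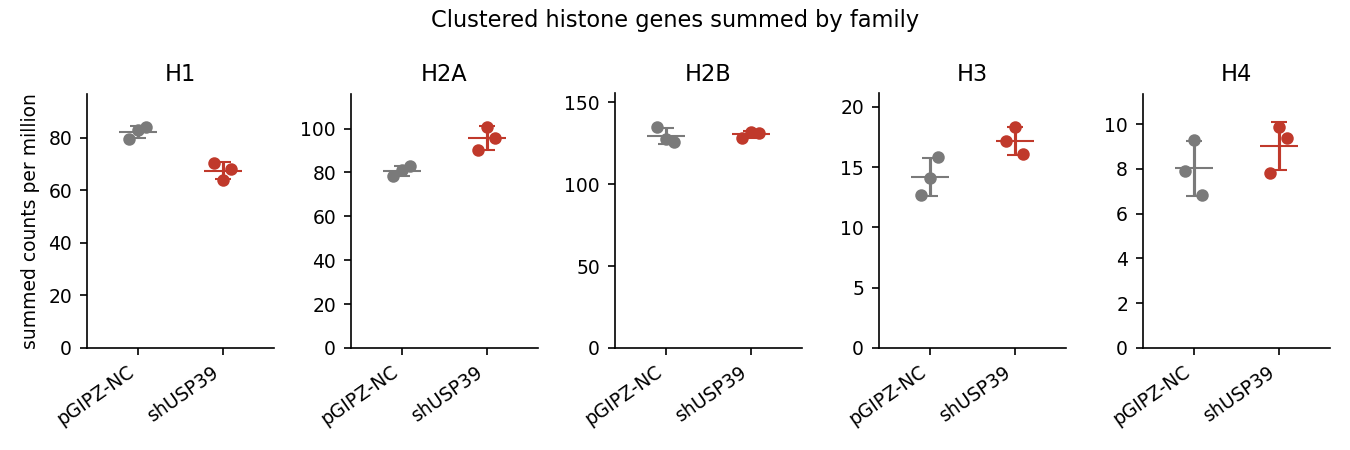
Summed CPM of the clustered genes of each histone family, from 0, with a point for each of the 3 pGIPZ-NC and 3 shUSP39 libraries and the mean ± SD. H1 lies at 79.6 to 84.1 CPM in pGIPZ-NC and 63.9 to 70.3 CPM in shUSP39, and H2A at 78.4 to 82.9 CPM and 90.3 to 101 CPM, while H2B and H4 overlap.

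Few clustered genes carried these sums. Only 7 of the 69 had a mean of at least 5 CPM, and 42 had under 1 CPM. HIST1H2BK, HIST1H1C and HIST3H2A, which encode an H2B, a linker H1 and an H2A, held 69.0% to 69.8% of clustered counts in pGIPZ-NC and 62.8% to 66.1% in shUSP39. Per kilobase of transcript, the mean level in pGIPZ-NC was 214 CPM per kb for HIST1H2BK, 109 for HIST1H1C and 65.5 for HIST3H2A. The median of the clustered genes tested was 2.77 CPM per kb. Of the variants, 5 stood above HIST1H2BK, with 1197 CPM per kb for H2AFZ, 579 for H3F3B, 512 for H2AFX, 438 for H3F3A and 338 for H1FX. H1F0 at 154, H2AFY2 at 112, H2AFV at 41.5 and H2AFY at 7.69 CPM per kb stood below it.

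With edgeR's quasi-likelihood test over the whole table, 52 of the 83 histone genes had enough counts to be tested, 42 clustered and 10 variant. At an adjusted p under 0.05, 12 of the 52 were called, 6 higher and 6 lower in shUSP39. The same number, 12, had an unadjusted p under 0.05. The background was high, since 33.6% of the 10695 genes tested were called, 16.1% higher and 17.5% lower. Against it, 6 of the 42 clustered genes (14.3%) and 6 of the 10 variants (60.0%) were called. These shares differ in precision as well as in class, as the median standard error (SE) of the log2 fold change was 0.29 for clustered genes and 0.04 for variants. The median log2 fold change was 0.11 for the clustered genes tested, -0.05 for the variants and 0.01 for all genes. With a change beyond 2-fold also required, 1 of the 52 histone genes, HIST1H3J, was called, against 6.81% of all genes. HIST1H3J passed the filter on low counts only through the shUSP39 libraries. In CPM the groups did not overlap for 14 of the 52 genes, against 44.5% of all genes tested.

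**Figure D2:**
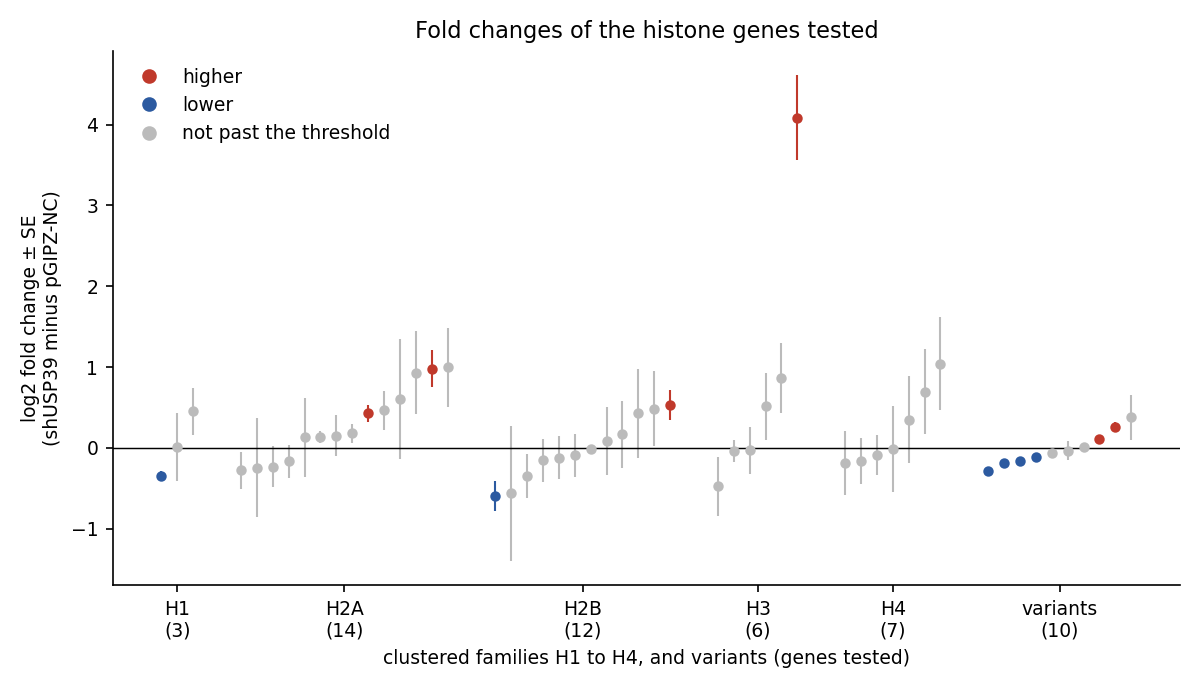
Log2 fold change ± SE, shUSP39 minus pGIPZ-NC, of the 52 histone genes tested, ordered within the clustered families and the variants, with the number tested in brackets. Red and blue mark genes called higher and lower at an adjusted p under 0.05. HIST1H3J at 4.09 stands alone, and the variants lie between -0.28 and 0.38, most of them with short error bars.

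HIST1H3J, a clustered gene for canonical H3, had the largest change among the histone genes tested. It had 1, 4 and 5 counts in pGIPZ-NC and 64, 52 and 60 counts in shUSP39. All 3 shUSP39 libraries lay above all controls. In CPM the mean was 0.110 ± 0.0735 (SD, n = 3) in pGIPZ-NC and 1.92 ± 0.178 in shUSP39. The log2 fold change was 4.09 ± 0.53 (SE, adjusted p = 5.86e-07). Pooled over libraries, 176 counts stood against 10, a ratio of CPM of 17.99 with an exact interval for counting error only of 9.55 to 38.2. The gene passed the filter on low counts only through the shUSP39 libraries, and it remained a minor H3 gene, at 9.37% to 12.7% of clustered H3 counts in shUSP39 and 0.245% to 1.12% in pGIPZ-NC. HIST1H3H, the most abundant clustered H3 gene, had 255, 275 and 278 counts in pGIPZ-NC and 255, 280 and 250 counts in shUSP39, with a log2 fold change of -0.04 (adjusted p = 0.86).

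HIST1H3J lies on the minus strand at chr6:27858093-27858604 (GRCh37), and its canonical transcript has 1 exon and shares no run of 50 bases with a transcript of another gene. Its hairpin is the commonest version shown above, beginning 47 bases after the stop codon. From 250 bases before to 50 after its start it holds both CCAAT and TATAA. GENCODE also lists a second HIST1H3J transcript, with exons at chr6:27860539-27860884 and chr6:27858413-27858588, and the first of these lies whole within HIST1H2AM, a neighbouring H2A gene on the same strand. Of the runs of 50 bases in HIST1H2AM, 67.8% occur in another annotated gene, mainly HIST1H3J, so reads there cannot be given to either gene with certainty. HIST1H2AM had 135, 95 and 65 counts in pGIPZ-NC and 135, 98 and 168 counts in shUSP39, groups that overlap, with a log2 fold change of 0.46 ± 0.24 (adjusted p = 0.15). Without pGIPZ-NC replicate 1 it was 0.73 and called (adjusted p = 0.038). It is named for its position, chosen after its values were seen. Within 100 kb of the HIST1H3J start lay 14 other histone genes, of which 10 were tested, with log2 fold changes between -0.19 and 1.04. Of these 10, 0 were called by edgeR, DESeq2 or limma-voom (0, 0 and 1 at an unadjusted p under 0.05), beside 33.6% of all genes by edgeR. Their SE ran from 0.14 to 0.57, so smaller changes among them could go uncalled.

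**Figure D3:**
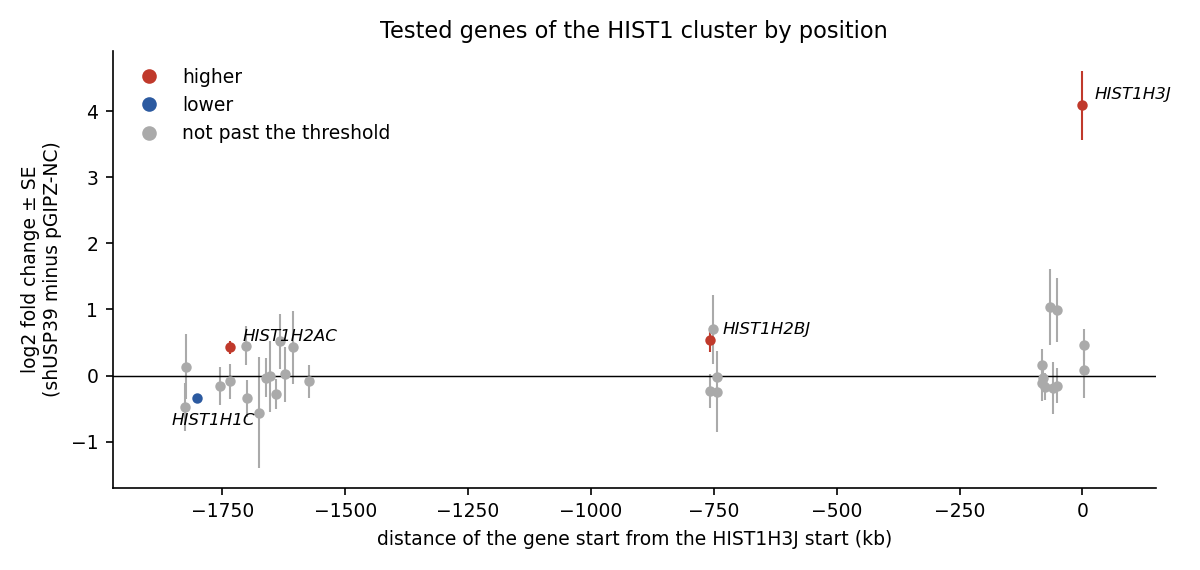
Log2 fold change ± SE, shUSP39 minus pGIPZ-NC, of the HIST1 genes tested and found in the annotation, against the distance of each gene's start from that of HIST1H3J in kb, with called genes named. HIST1H3J, at 4.09, stands above its neighbours within 100 kb, which lie between -0.19 and 1.04.

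Among linker histones, 1 of the 3 clustered genes tested, HIST1H1C, was lower, and the variants H1FX and H1F0 were higher. Over all genes tested 17.5% were lower and 16.1% higher, or 33.6% called, and these few genes are not read against that share. The difference between the classes was not tested. HIST1H1C, which encodes H1.2 (chr6:26055968-26056698, minus strand), had 75.7, 80.8 and 81.5 CPM in pGIPZ-NC and 66.3, 60.4 and 64.2 CPM in shUSP39. Every shUSP39 library was below every control, and the log2 fold change was -0.34 ± 0.06 (adjusted p = 4.82e-05). HIST1H1C held 95.1% to 97.6% of clustered H1 counts in pGIPZ-NC, so the lower H1 sum is largely this gene. The variant H1FX, which encodes H1.10, had 497, 510 and 531 CPM in pGIPZ-NC and 565, 629 and 685 CPM in shUSP39, with a log2 fold change of 0.26 ± 0.05 (adjusted p = 0.00095). H1F0, the H1.0 gene linked to slowly dividing and differentiated cells, had 331, 331 and 356 CPM in pGIPZ-NC and 383, 357 and 379 CPM in shUSP39. Its groups nearly touched, and its log2 fold change was 0.11 ± 0.04 (adjusted p = 0.026). The call was lost without pGIPZ-NC replicate 1 or 2 or shUSP39 replicate 1 or 3 (adjusted p = 0.099, 0.16, 0.12 and 0.096). HIST1H1C made up 8.34% to 8.75% of all H1 counts in pGIPZ-NC and 5.67% to 6.51% in shUSP39. HIST1H1E had 91, 43 and 43 counts against 97, 74 and 70, and HIST1H1D had 31, 21 and 31 against 29, 22 and 33. Neither was called (log2 fold changes of 0.45 and 0.02, adjusted p = 0.25 and 0.98), although HIST1H1E was called without pGIPZ-NC replicate 1 (0.87, adjusted p = 0.037).

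In the H2A family, 2 of the 14 clustered genes tested were higher and 0 were lower by edgeR, DESeq2 or limma-voom, with 0 at an unadjusted p under 0.05. The 14.3% higher stood beside 16.1% of all genes. The other 12 had log2 fold changes between -0.28 and 1.00. HIST1H2AC (chr6:26124400-26124918, plus strand) had 12.8, 13.6 and 14.6 CPM in pGIPZ-NC and 17.6, 19.7 and 18.7 CPM in shUSP39. The groups did not overlap, and the log2 fold change was 0.43 ± 0.10 (adjusted p = 0.0018). HIST2H2AA3 (chr1:149813505-149814478, minus strand) had 54, 87 and 63 counts in pGIPZ-NC and 154, 142 and 106 counts in shUSP39, higher in each library, with a log2 fold change of 0.98 ± 0.23 (adjusted p = 0.0014). It is named as 1 of the 12 called, although its mean lies under 5 CPM. HIST2H2AA4 is an identical copy, all of whose runs of 50 bases occur in HIST2H2AA3, so reads may be split between them, and its log2 fold change was 0.93 (adjusted p = 0.18). Summed, the copies had 58, 118 and 80 counts in pGIPZ-NC and 190, 179 and 132 in shUSP39. The summed test, added after seeing the data, gave a log2 fold change of 0.97 ± 0.23 (adjusted p = 0.0012). The more abundant HIST3H2A, with 31.0 to 35.3 CPM against 35.3 to 39.0 CPM, had a log2 fold change of 0.14 (adjusted p = 0.18, fold 0.992 to 1.22 as a 95% interval). HIST2H2AC, with 12.02 to 14.5 CPM against 13.8 to 16.4 CPM, had 0.18 (adjusted p = 0.24).

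The H2B genes gave a fall and a rise around an abundant gene that was not called. HIST1H2BK had 111, 105 and 101 CPM in pGIPZ-NC and 105, 105 and 110 CPM in shUSP39, which overlap. Its fold was 0.989 with a 95% interval of 0.921 to 1.06 (adjusted p = 0.86), and 57.2% of its runs of 50 bases also occur in another annotated gene. HIST2H2BE (chr1:149856009-149858232, minus strand) had 188, 198 and 161 counts in pGIPZ-NC and 130, 139 and 91 in shUSP39, lower in each library, with a log2 fold change of -0.60 ± 0.18 (adjusted p = 0.013). Without shUSP39 replicate 3 it was -0.46 and the call was lost (adjusted p = 0.083). HIST1H2BJ (chr6:27100095-27100574, minus strand) had 3.79, 3.49 and 4.95 CPM in pGIPZ-NC and 5.85, 5.69 and 6.39 CPM in shUSP39, with a log2 fold change of 0.53 ± 0.18 (adjusted p = 0.025). Its call was lost without pGIPZ-NC replicate 1, pGIPZ-NC replicate 2 or shUSP39 replicate 3 (log2 fold changes of 0.48, 0.43 and 0.48, adjusted p = 0.080, 0.12 and 0.087). The other 9 H2B genes tested had log2 fold changes between -0.56 and 0.49.

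Of the 7 clustered H4 genes tested, 0 were called by edgeR, DESeq2 or limma-voom, beside 33.6% of all genes by edgeR, and 0, 0 and 1 had an unadjusted p under 0.05. Their log2 fold changes lay between -0.19 and 1.04, the highest that of HIST1H4J (6, 24 and 5 counts against 24, 22 and 25). Without pGIPZ-NC replicate 2, HIST1H4J was called by edgeR (2.05, adjusted p = 0.033). It then passed the filter on low counts only through the shUSP39 libraries, so that call is not independent support. HIST1H4H had 79, 77 and 62 counts against 71, 66 and 67, HIST1H4C had 71, 66 and 47 against 52, 63 and 48, and HIST1H4K had 40, 52 and 25 against 23, 47 and 31. Counts this low leave wide intervals, as for HIST1H4C a fold of 0.608 to 1.32. Among clustered H3 genes other than HIST1H3J, HIST1H3D (56, 75 and 54 counts against 87, 48 and 46) and HIST1H3B (35, 47 and 49 against 25, 36 and 33) were not called, and all 5 tested lay between -0.48 and 0.86. HIST2H3A and HIST2H3C are near-identical copies that were each too low to test. Summed after seeing the data they had 5, 6 and 3 counts in pGIPZ-NC and 35, 13 and 12 in shUSP39, and 28 of the 35 were counts of HIST2H3C in that library. The sum is given as a description, since it had enough counts only through shUSP39.

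Many clustered H2A and H2B genes stand head to head, sharing the short stretch between their starts. Among the histone genes found, 11 pairs on opposite strands had starts within 1000 bases, 10 of them an H2A with an H2B. Both genes were tested in 8 pairs, and in 3 of these 1 partner was called while in 0 pairs were both by edgeR, DESeq2 or limma-voom. By edgeR 14.3% of the clustered genes tested were called, beside 33.6% of all genes. At that share, 8 pairs are too few to read 0 as a result about partners. HIST1H2AC was called higher at 0.43 and its partner HIST1H2BC, 246 bases away, had a log2 fold change of -0.09. HIST1H2BJ was called higher at 0.53 and HIST1H2AG, 248 bases away, had -0.23. HIST2H2BE was called lower at -0.60 and HIST2H2AC, 236 bases away, had 0.18. The difference between partners was not tested.

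Of the 10 variants tested, 2 were higher and 4 lower, or 60.0% called beside 33.6% of all genes. Of 6 variants with several exons tested, 4 were lower and 0 higher by edgeR, DESeq2 or limma-voom. Of 4 with 1 exon tested, 2 were higher and 0 lower by these tools, and in both cases 0 at an unadjusted p under 0.05. This split was noticed in the data, it rests on 10 genes, and the difference was not tested. H1F0, H1FX, H2AFV and H2AFZ were called in 12, 15, 15 and 13 of 16 alternatives. Only H2AFY2 and H3F3A were called in all 16. Of all genes, 16.1% were higher and 17.5% lower. H3F3A and H3F3B both encode H3.3, the replacement H3 that HIRA and DAXX with ATRX place outside replication. H3F3A (chr1:226250417-226259720, plus strand, 4 exons) had 463, 471 and 472 CPM in pGIPZ-NC and 397, 396 and 382 CPM in shUSP39, with a log2 fold change of -0.28 ± 0.03 (adjusted p = 2.00e-07). All shUSP39 libraries lay below all controls. H3F3B had 1589, 1567 and 1540 CPM in pGIPZ-NC and 1664, 1555 and 1590 CPM in shUSP39, and its fold of 1.01 had a 95% interval of 0.965 to 1.05 (adjusted p = 0.86). H3F3A made up 22.6% to 23.4% of the counts of both in pGIPZ-NC and 19.3% to 20.3% in shUSP39. Of the runs of 50 bases in H3F3A, 72.7% occur in another annotated gene, so its counts may be shared. H3F3C had at most 4 counts and was not tested.

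The H2A.Z genes fell together by small amounts. H2AFZ, which encodes H2A.Z.1 (chr4:100869245-100871432, minus strand, 5 exons), had 1066, 1022 and 1020 CPM in pGIPZ-NC and 1003, 964 and 966 CPM in shUSP39 (log2 fold change -0.11 ± 0.03, adjusted p = 0.0081). Its call was lost without shUSP39 replicate 2 (adjusted p = 0.052) and by upper-quartile scaling (-0.06, adjusted p = 0.11). H2AFV, which encodes H2A.Z.2 (chr7:44871577-44887686, minus strand, 5 exons), had 130, 123 and 124 CPM in pGIPZ-NC and 116, 111 and 109 CPM in shUSP39 (log2 fold change -0.19 ± 0.05, adjusted p = 0.0038). H2AFY2, which encodes macroH2A2, a variant with a large extra domain found on silent chromatin, had 222, 217 and 210 CPM against 195, 198 and 201 CPM (log2 fold change -0.16 ± 0.04, adjusted p = 0.0039). In each of these 3 genes the groups did not overlap, as in 44.5% of all genes tested. H2AFY, for macroH2A1, had 12.8 to 16.3 CPM against 13.6 to 16.1 CPM and was not called (adjusted p = 0.85). H2AFX, whose protein is phosphorylated at DNA breaks, had 783, 840 and 822 CPM against 767, 789 and 835 CPM, and its fold had a 95% interval of 0.916 to 1.01 (adjusted p = 0.24). H2AFJ had 62, 44 and 51 counts against 66, 71 and 67, with a log2 fold change of 0.38 (adjusted p = 0.32).

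**Figure D4:**
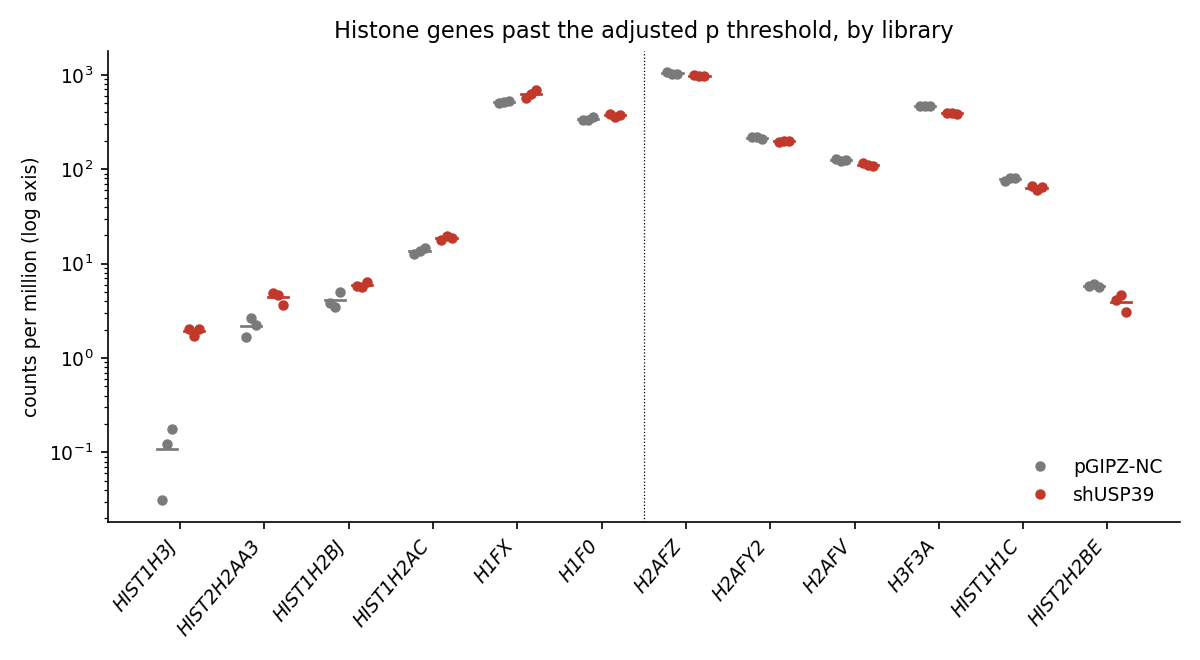
CPM on a log axis of the 12 histone genes called, with a point for each of the 3 pGIPZ-NC and 3 shUSP39 libraries and a line at the mean, higher genes left of the dotted line and lower genes right of it. HIST1H3J moves from a mean of 0.110 to 1.92 CPM, while the variants at 109 to 1066 CPM move by small steps.

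Transcript usage could be followed in few members. Of the 83 genes, 78 had 1 transcript in the table and 5 had several, and 2 of these, H2AFY and HIST1H2BK, could be tested for a change in transcript usage. Neither passed (adjusted p = 1.00 for both by edgeR's diffSpliceDGE), against 2.03% of the 1628 genes tested. For H2AFY, the main transcript took 53.8%, 55.3% and 57.3% of counts in pGIPZ-NC and 50.8%, 52.0% and 59.1% in shUSP39, which overlap.

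The remaining members lie near the floor of detection. The 31 genes not tested, 27 clustered and 4 variant, had at most 28 counts in a library and 47 to 62 summed counts per pGIPZ-NC library, against 99 to 131 per shUSP39 library. Of them 9 had 0 counts in every pGIPZ-NC library and 0 in shUSP39 replicate 1. In shUSP39 replicates 2 and 3, 8 and 7 of these 9 had a count, with 25 and 19 counts in all. A count of 0 allows up to 3 counts. These are the libraries in which more genes overall had a count, and the part of that in these values was not tested. They included the testis gene for H1t, HIST1H1T, and the variants H2BFWT and H2BFM.

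Of 23 genes of histone pre-mRNA processing and the histone locus body, 21 were tested, 2 were higher and 2 lower, so that 19.0% were called beside 33.6% of all genes. Their median log2 fold change was -0.01, beside 0.01 over all genes. SLBP, which binds the stem-loop, stood at 31.7 ± 1.27 CPM in the 3 pGIPZ-NC libraries and at 31.0 ± 1.153 CPM (SD) in the 3 of shUSP39, a fold with a 95% interval of 0.867 to 1.07 (adjusted p = 0.65 by edgeR). LSM11 of the U7 snRNP, which cuts the 3' end, was higher (52.9 ± 3.998 to 69.1 ± 0.455 CPM, log2 fold change 0.36 ± 0.06, adjusted p = 7.00e-05). So was ERI1, an exonuclease that trims the stem-loop end, with a log2 fold change of 0.31 (280 to 352 CPM). SYMPK, the scaffold of the cleavage complex, and SNRPF, an Sm protein, were lower, with log2 fold changes of -0.35 and -0.24. LSM10, ZNF473, NPAT and CASP8AP2, which encode a second U7 protein, a U7 cofactor and organisers of the histone locus body, were not called (log2 fold changes of 0.03, 0.07, -0.49 and 0.03). NPAT had 5 to 21 counts per library (SE 0.59) and CASP8AP2 18 to 41 (SE 0.44), so changes in them could go uncalled. CSTF2, CPSF3 and HINFP, with means of 0.30, 0.56 and 0.51 CPM, were also low. The 19.0% called therefore includes genes with too few counts to show small changes.

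Chaperones of newly made histones were among the called genes. Of 39 histone chaperones and exchange factors, 36 were tested, 17 were lower and 2 higher, so that 52.8% were called beside 33.6% of all genes. Their median log2 fold change was -0.23, beside 0.01 over all genes. ASF1A (83.0 to 70.9 CPM, log2 fold change -0.25) and ASF1B (155 to 121 CPM, -0.38), which handle H3 and H4 in replication, were lower. So were CHAF1A (374 to 320 CPM, -0.25) and CHAF1B (76.0 to 63.6 CPM, -0.28). Adjusted p for these 4 lay between 6.28e-07 and 0.00072 by edgeR. RBBP7, HAT1, SUPT16H and SSRP1 of the same list were also called lower (log2 fold changes of -0.29, -0.23, -0.38 and -0.19). RBBP4, the other CAF-1 subunit, TONSL and MMS22L, which act together at replication forks, and NASP were not called (log2 fold changes of 0.03, -0.13, 0.07 and -0.25, adjusted p = 0.79, 0.14, 0.34 and 0.43). NASP had 75 to 112 counts per library and an SE of 0.23, against 0.06 for ASF1A at the same log2 fold change. The 2 genes therefore differ in precision, and a change in NASP could go uncalled. HIRA, the H3.3 chaperone, was lower at -0.15 (adjusted p = 0.0081, lost without pGIPZ-NC replicate 3 at 0.056 and by upper-quartile scaling at 0.067), while DAXX and ATRX, with log2 fold changes of -0.22 and -0.43, were not called (adjusted p = 0.26 and 0.11). The SE was 0.04 for HIRA, 0.14 for DAXX and 0.20 for ATRX, so these calls differ in precision too. SRCAP and EP400, the motor subunits of complexes that put H2A.Z into chromatin, were lower at -0.31 and -0.38. UBN2, a partner of HIRA, and SPTY2D1 were the genes that were higher, at 0.18 and 0.15. HJURP and CENPA, of the centromeric H3, were not called (-0.10 and -0.05), and ANP32E was too low to test.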

How the data were processed

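RNA sequencing of 6 A2780 libraries was analysed from the deposited table of whole-number counts per transcript, in which the authors also give means per group on a size-factor-scaled signal, ratios (fold and log2 fold) and p-values and q-values. Those columns were not used. The submitters' processing notes list HISAT2, Cufflinks and hg19, with no role given, and the counter is not given in the sources used here. Column names matched the labels, and 0 columns of sample values were left unmapped. Counts were summed per gene symbol over 21368 transcripts. Genes were tested with edgeR 4.0.16 (R 4.3.3; default filterByExpr, TMM, robust quasi-likelihood fit, group only) and Benjamini-Hochberg adjustment over all genes tested, at 0.05. SE was the log2 fold change over the root of F. Transcript usage was tested with diffSpliceDGE. CPM (counts-per-million) is scaled to all counts of a library, and the depth was 28294819 to 32939264 counts. In simulated counts for 10695 genes in this comparison, 92% of 4-fold and 73% of 2-fold changes were recovered. Alternatives used limma 3.58.1, DESeq2 1.42.0, other scalings and filters, and left-out libraries. Symbols were matched to GENCODE 44 on GRCh37, of which hg19 is a name, and coordinates are 1-based. The 95% intervals are normal intervals from the SE, or exact for pooled counts.

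Members and gene lists were chosen with earlier results of these data known. Genes named are those called with a mean of at least 5 CPM or beyond 2-fold, the 3 most abundant clustered genes per family, set variants and list genes, and the remaining called gene. Partners, copies and neighbours of these, and RBBP4, RBBP7, HAT1, SUPT16H, SSRP1, TONSL, MMS22L, CSTF2, CPSF3 and HINFP, were named after their values were seen. One marker and one sequence are not reported here.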

Additional observations from a re-analysis of the deposited data

How the results depend on the processing

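The count of 12 histone genes stayed between 11 and 13 under other scalings, filters, tools, the highest transcript of each gene and summed copies, and between 9 and 12 with a library left out. With a replicate block it was 12. Replicate numbers did not mark pairs (correlations of same-numbered deviations of 0.069, 0.0048 and 0.022). Without the shUSP39 libraries 2 and 3, where the remaining library is assumed to vary like the controls, it was 7, with clustered lower 1, variant higher 1 and variant lower 2. Leaving out 1 library, clustered lower calls ranged from 1 to 2 and variant higher calls from 1 to 2.

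The count beyond 2-fold was 1, 2 by upper-quartile scaling or library size only, 0 where at least 10 counts were required in every library (HIST1H3J was then not tested), 1 to 3 with a library left out and 3 without shUSP39 libraries 2 and 3. The clustered median of 0.11 was 0.42 without a filter and -0.011 with at least 10 counts in every library. The variant median of -0.046 was between -0.097 and -0.026 with a library left out, -0.0017 by upper-quartile scaling, -0.016 without a filter and -0.020 with library size only. The cause was not tested.

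Without shUSP39 libraries 2 and 3, the calls of H1FX, H2AFV, H2AFZ, HIST1H2AC, HIST1H2BJ, HIST2H2BE, ASF1A and HIRA were lost. H1F0 lost its call without pGIPZ-NC replicate 1 or 2 or shUSP39 replicate 1 or 3. H2AFZ lost it without shUSP39 replicate 2 and by upper-quartile scaling. HIST1H1C, H3F3A, H2AFY2 and HIST2H2AA3 were called in all 16 alternatives. HIST1H3J was called in the 15 that tested it, with log2 fold changes of 3.64 to 4.55. It passes the filter on low counts only through the shUSP39 libraries, where it is high, so these calls are not independent support. HIST1H1E and HIST1H2AM were called without pGIPZ-NC replicate 1 (0.87 and 0.73). A test on log2 values was not run because the table holds counts. Genes with few counts limit what can be called.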

Other observations

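Clustered histone mRNA is made in S phase. Of 30 S-phase genes, 26 were tested, 13 were lower and 1 higher by edgeR, so that 53.8% were called beside 33.6% of all genes, of which 17.5% were lower and 16.1% higher. Their median log2 fold change was -0.23, beside 0.01 over all genes. TYMS, which makes thymidylate, stood at 383 ± 8.10 CPM in the 3 pGIPZ-NC libraries and at 300 ± 7.40 CPM (SD) in the 3 of shUSP39 (log2 fold change -0.38), and MCM6, of the replicative helicase, had 630 ± 10.9 and 517 ± 9.59 CPM (-0.31). PRIM1, RRM1 and UHRF1 were lower at -0.31, -0.27 and -0.32. CDC6, which loads the helicase, was higher (280 ± 7.88 to 320 ± 7.46 CPM, 0.17). The list shares SLBP and CCNE2 with the list of histone pre-mRNA processing and CHAF1B and NASP with the chaperones.

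Some genes of dividing cells were close to 0 in this table, with means in pGIPZ-NC of 0.299 CPM for MCM7, 0.406 CPM for RPA2 and 0.145 CPM for RFC2, so a low value here does not show low expression of a histone gene. The cause was not tested.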
